A study of Mus musculus with 16 samples.

Results

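Integrins are receptors made of 1 alpha and 1 beta subunit that tie a cell to the matrix around it. Here 10 integrin subunits, Itga1, Itga2, Itga3, Itga5, Itga6, Itga9, Itgav, Itgb1, Itgb4 and Itgb6, were followed gene by gene through the cells of the pubertal mouse mammary gland. They are a named list of receptor genes with no threshold on their values, drawn up with earlier results of these data known, and all 10 are among the 17721 genes of the deposited table. The tissue came from mice 5 weeks old of strain C57BL/6, and the study's figure legend gives their genotype as K14-Cre/R26-mTmG, a reporter that marks cells with a history of Keratin 14 promoter activity and that was shared by all groups. Cells of 4 nipple samples, 6 duct samples and 6 samples of terminal end buds (TEBs, the growing tips of the ducts), each called a fragment here, were sorted 1 to a well and sequenced from the 3′ end with unique molecular identifiers (UMIs), so that a count stands for 1 captured RNA molecule.

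Beta 1 pairs with most of the alpha subunits. With alpha 1 or alpha 2 it binds collagen, with alpha 3 or alpha 6 laminin, with alpha 5 fibronectin, and with alpha 9 tenascin among others. Alpha v pairs with several beta subunits, among them beta 6, and binds RGD motifs in fibronectin, vitronectin and latent TGF-beta, whereas beta 4 pairs with alpha 6 alone and anchors the basal cell to its basement membrane through the hemidesmosome. In the mammary gland the basal (myoepithelial) cells rest on that laminin-rich membrane and surround the luminal cells, and alpha 6 (CD49f) and beta 1 are the surface proteins by which basal cells are usually sorted.

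Of 1419 deposited cells, 1317 passed the study's limits. All integrin genes were left out of the genes used for clustering, so that the measured genes did not make the classes. Clusters whose markers fitted a cell type gave 294 basal-like, 426 ER+ luminal-like (with estrogen receptor), 178 ER- luminal-like and 252 fibroblast-like cells, the 4 classes compared here. A further 78 cells were myeloid-like, 19 pericyte-like and 70 lay in a cluster of mixed leading genes left unnamed. The basal-like cells of TEBs formed a cluster of their own: it held 81 of the 82 TEB cells of this class and 1 nipple cell, and 1 TEB cell clustered with the nipple and duct basal cells. The clusters were named from marker lists, so the 10 basal markers describe this class and do not test its label. All 10 were also detected in ER+ luminal-like cells of ducts and TEBs. In basal-like cells all 10 markers were detected at each location. Their summed level was 18000 to 20400 CPM (UMIs of a gene per 1e+06 UMIs of the sum) in nipple, 22100 to 28000 in duct and 4540 to 8670 in TEB fragments, and the TEB range lay below both others. Krt14 and Myh11, genes of basal keratin and smooth muscle myosin, had medians of 527 and 38.2 CPM in TEBs against 4350 and 960 CPM in ducts, whereas the basal transcription factor gene Trp63 had 63.3 CPM against 18.2. Luminal keratin RNA was also present in basal-like cells, with a median of 3750 CPM of Krt8 in ducts, 2250 in nipples and 1430 in TEBs.

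Counts were summed per fragment within a class. Each sum held at least 5 cells, and basal-like sums held 302554 to 1210315 UMIs from 6 to 32 cells. Depth per cell differed: the median was 21856 UMIs per basal-like cell in nipples, 23146 in ducts and 44192.5 in TEBs. Levels below are CPM of a sum, and differences are log2 differences with their standard error (SE) from the edgeR quasi-likelihood fit, with p adjusted over all genes tested and called under 0.05. The labels do not say which fragments came from the same mouse, so p measures the spread between fragments only. The 95 well barcodes were used again from fragment to fragment. RNA from other wells may also reach a sum. Fibroblast and myeloid markers, set against all cells of the same fragment, put it at 9.24% (nipple), 13.9% (duct) and 12.5% (TEB) of the basal-like UMIs on average. RNA of these markers made by the basal-like cells themselves would be counted in it too.

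The members were spread over the genome (GENCODE M21, build GRCm38, the coordinates of mm10). Itga3 lies on chromosome 11 from 95044474 to 95076801 on the minus strand and Itgb4 on chromosome 11 from 115974709 to 116008412 on the plus strand. Itga5 is on chromosome 15 (103344286 to 103366763, minus), Itgb1 on chromosome 8 (128685654 to 128733200, plus) and Itga9 on chromosome 9 (118606690 to 118901003, plus). Chromosome 2 holds Itgav (83724397 to 83806916, plus), Itga6 (71745616 to 71858416, plus) and Itgb6 (60598292 to 60722643, minus). The collagen receptor genes Itga1 (114953096 to 115101964) and Itga2 (114833081 to 114932100) are neighbours on the minus strand of chromosome 13. Of the 10 genes, 4 (Itga2, Itga3, Itgb1 and Itgb6) overlap no other annotated gene, and Itga1 shares its span with the gene Pelo on the same strand, so a read there may belong to either.

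The 4 members that were called between duct and TEB basal-like cells are Itga3, Itga5, Itgav and Itgb1. The 150 bases before their start sites are shown because these genes share that call, 5′ to 3′ on the gene's strand, from the RefSeq promoter table (GRCm38.p6), in which 8 of the 10 members were found. Capitals mark GGGCGG or CCGCCC (the GC box, both strands) and GGAATG or CATTCC (the TEAD motif, both strands), and TGANTCA (AP-1, the same on both strands but for its middle base) was searched too.

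Itga3 (chr11:95076802-95076951, minus): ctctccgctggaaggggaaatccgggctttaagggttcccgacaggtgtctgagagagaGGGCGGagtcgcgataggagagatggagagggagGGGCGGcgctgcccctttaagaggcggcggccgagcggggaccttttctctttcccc
Itga5 (chr15:103366792-103366941, minus): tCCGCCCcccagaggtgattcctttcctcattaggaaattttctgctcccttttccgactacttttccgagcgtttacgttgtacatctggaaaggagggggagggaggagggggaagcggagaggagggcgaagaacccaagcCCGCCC
Itgav (chr2:83724247-83724396, plus): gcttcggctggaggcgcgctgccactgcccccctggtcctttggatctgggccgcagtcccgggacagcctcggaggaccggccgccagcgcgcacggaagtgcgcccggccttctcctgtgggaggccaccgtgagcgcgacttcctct
Itgb1 (chr8:128685504-128685653, plus): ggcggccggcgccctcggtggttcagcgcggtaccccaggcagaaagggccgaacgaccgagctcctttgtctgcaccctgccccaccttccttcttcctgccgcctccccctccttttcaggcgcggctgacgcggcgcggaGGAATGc

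Itga3 and Itga5 each held 2 GC boxes, Itgb1 held 1 TEAD motif and Itgav held none of the 3 motifs in these letters. Among 32851 promoters of the table, 28.6% held a GC box, 7.59% a TEAD motif and 4.24% an AP-1 motif in the same number of bases. The G and C content was 64% for Itga3, 56.7% for Itga5, 72.7% for Itgav and 70% for Itgb1.

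The first comparison asked how the subunits are shared out between cell classes. Among these 4 classes basal-like cells had the highest mean level of Itga1, Itga2, Itga3, Itga6, Itga9, Itgb1 and Itgb4, fibroblast-like cells had the highest of Itga5 and Itgav, and Itgb6 was highest in luminal-like cells. In the fit with fragment as a block, basal-like cells were called higher than ER+ luminal-like cells for 8 of 9 members tested and than ER- luminal-like cells for 7 of 9. This is read against 44.8% and 29% of all genes called in either direction in the same comparisons. Itga1 did not pass the filter on low counts in that fit.

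**Figure D1:**
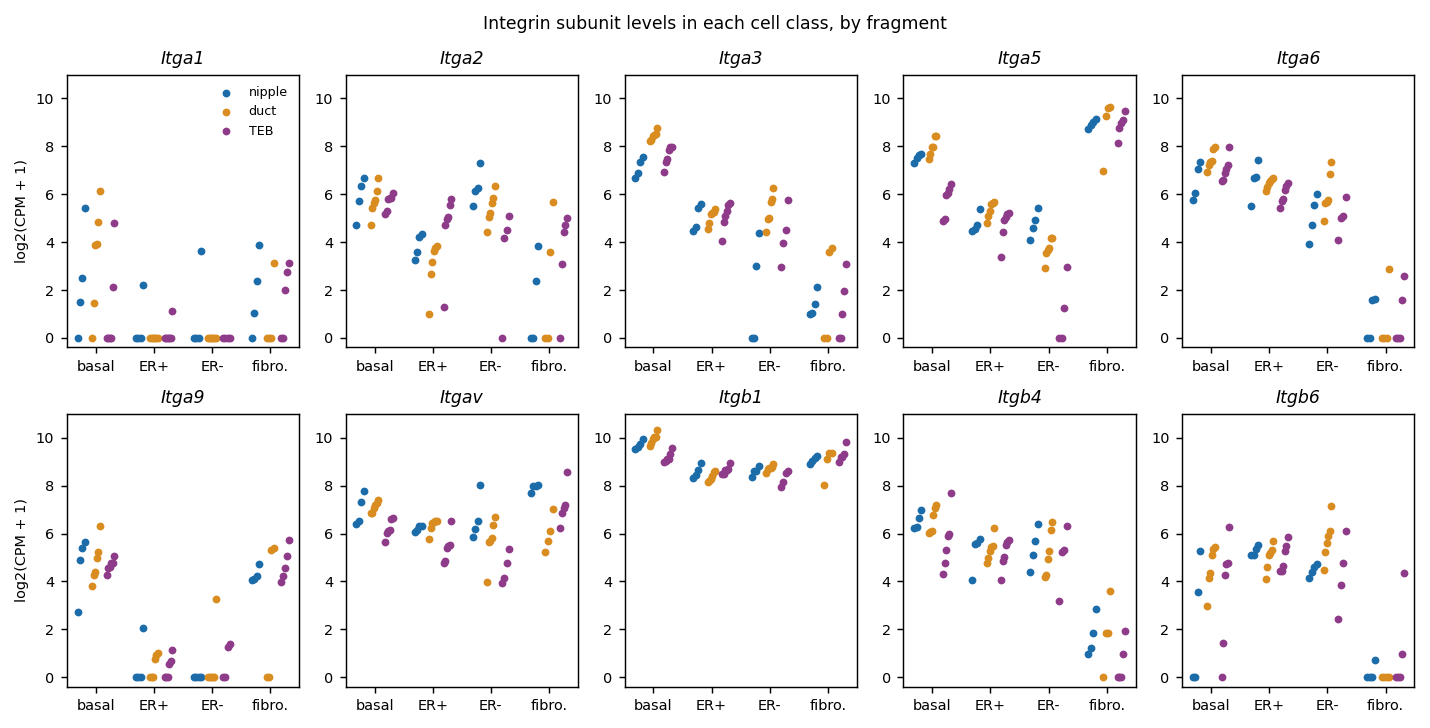
Levels of the 10 integrin subunits as log2(CPM + 1) on the y axis in basal-like, ER+ luminal-like, ER- luminal-like and fibroblast-like cells (x axis), 1 point for each fragment, coloured by location. Itga3, Itga6 and Itgb4 are near 0 in fibroblast-like cells, whose Itga5 (mean 521 CPM) exceeds that of basal-like cells (166 CPM).

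The laminin-binding subunits marked the epithelium. Itga3 had a mean of 242 CPM ± 101 (SD, n = 16 fragments) in basal-like, 33.9 ± 10.1 (n = 16) in ER+ and 27.5 ± 23 (n = 14) in ER- luminal-like cells. It was higher in basal-like than in ER+ cells in 16 of 16 fragments, by 2.67 on the log2 scale (SE 0.289, adjusted p = 1.1e-11), and the 2 luminal classes did not pass the test (log2 difference 0.60, SE 0.323, adjusted p = 0.17). Itga6 followed the order basal, ER+, ER-, with 145 ± 59.1, 83.4 ± 31.3 and 53.2 ± 40.4 CPM. Each step passed the test: the log2 difference was 0.70 from basal to ER+ (SE 0.259, adjusted p = 0.023) and 0.93 from ER+ to ER- (SE 0.286, adjusted p = 0.01). The first step is the less firm, since 4 of the 16 fits that left out a fragment (duct 31, duct 52, nipple 22 and TEB 34) lost it, with differences down to 0.58. Over all alternatives it was lost in 7 of 27, also with no filter on low counts (adjusted p = 0.053) and with at least 10 cells per sum (0.066). Leaving out cells with both Krt5 and Krt18 lost it too (0.66, adjusted p = 0.12). That alternative, used again below, removed 56.5% of basal-like cells and changed their mix of locations. It left 11 basal-like sums, 4 from nipples, 2 from ducts and 5 from TEBs. The second step was lost in 2 of 27, 1 of them without regression when scaling (0.77, adjusted p = 0.055). CD49f, the Itga6 protein, was used by the study to sort basal cells in other experiments, and the sources used here do not give the antibodies of this sort. Itgb4, the partner of alpha 6 in the hemidesmosome, had 85.7 ± 48.6 CPM in basal-like cells against 39.9 ± 15.2 in ER+ (log2 difference 0.93, SE 0.304, adjusted p = 0.0094) and 43.6 ± 26.4 in ER- cells (1.07, SE 0.326, adjusted p = 0.0085). Without cells with both keratins (Krt5 and Krt18) these Itgb4 differences were 0.25 and 0.36 and were not called (adjusted p = 0.71 and 0.64). The first was also lost with at least 10 cells per sum (0.69, adjusted p = 0.058). Both were lost without regression when scaling (0.82 and 1.03, adjusted p = 0.083 and 0.057). In that setting nipple basal cells fell in an unnamed cluster, so the basal-like class had no nipple sums.

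In fibroblast-like cells the 3 laminin-binding subunits were at background. Itga3 had 17 UMIs, Itga6 13 and Itgb4 17 among 9488524, fewer than the 28, 33.3 and 22.7 UMIs that RNA from other wells would give. Thinned to 5000 UMIs per cell, 0.794% of 252 fibroblast-like cells (exact binomial 95% interval 0.0963 to 2.84%) held a UMI of Itga6, against 34.4% of 294 basal-like cells (28.9 to 40.1%). Unthinned, the shares were 3.17% and 56.5%, at medians of 36684 and 25530.5 UMIs per cell. Such intervals cover counting error only.

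The fibronectin receptor subunit Itga5 had another order. Its mean was 521 CPM ± 189 (SD, n = 13) in fibroblast-like, 166 ± 102 in basal-like, 32.3 ± 11.4 in ER+ and 13.8 ± 11.7 in ER- luminal-like cells. All neighbours in that order differed: fibroblast-like cells were higher than basal-like cells in 12 of 13 fragments (basal minus fibroblast -2.09, SE 0.282, adjusted p = 2e-08), basal-like cells were higher than ER+ cells in 16 of 16 (2.12, SE 0.272, adjusted p = 5.4e-09), and ER+ cells were higher than ER- cells in 13 of 14 (1.49, SE 0.343, adjusted p = 0.00062). The last step was 0.61 and not called (adjusted p = 0.36) when every cell was thinned to 5000 UMIs. It also rests on low counts, since the 74 UMIs seen in ER- cells stand beside 60.1 expected from other wells, and in TEBs 3 UMIs were seen where RNA from other wells would give 9.41.

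Itgav, the RGD-binding subunit, varied less between classes. The order was fibroblast-like (161 CPM ± 102), basal-like (114 ± 46.1), ER- (66.5 ± 62.7) and ER+ (65.7 ± 22.9). Basal-like cells were higher than ER+ cells (0.72, SE 0.26, adjusted p = 0.02, or 0.65 and 0.05 without nipple 23) and ER- cells (1.03, SE 0.288, adjusted p = 0.0042), and the luminal classes did not pass the test (0.31, SE 0.288, adjusted p = 0.48). Without cells with both keratins the first 2 differences were 0.11 and 0.38 (adjusted p = 0.85 and 0.54). Basal minus fibroblast was -0.71 (SE 0.284, adjusted p = 0.04), a call lost in 11 of 16 fits without 1 fragment, with values from -0.81 to -0.42; the value furthest from that with all fragments came without TEB 42. Its partner Itgb6 was the 1 member with a higher mean in luminal-like cells, at 34.5 ± 11.6 CPM in ER+ and 40.6 ± 35.4 in ER- against 22.2 ± 20.6 in basal-like cells, but neither difference was called (basal minus ER+ -1.03, SE 0.502, adjusted p = 0.087, and basal minus ER- -1.05, SE 0.53, adjusted p = 0.14).

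Itgb1, the common partner, was detected in every class. Its order was basal-like (809 CPM ± 224), fibroblast-like (576 ± 141), ER- (385 ± 65.3) and ER+ (374 ± 61.8). Basal-like cells exceeded ER+ cells in 16 of 16 fragments (1.04, SE 0.123, adjusted p = 1.8e-10) and ER- cells in 14 of 14 (1.12, SE 0.13, adjusted p = 2.1e-10), and the luminal classes, neighbours in the order, had a log2 difference of 0.08 (SE 0.13, adjusted p = 0.71). Basal minus fibroblast was 0.36 (SE 0.132, adjusted p = 0.027) and was lost in 3 of 27 settings, at 0.29 without duct 32 (adjusted p = 0.054), 0.31 with thinned cells (adjusted p = 0.063) and 0.0042 without cells with both keratins (adjusted p = 0.99). Fibroblast-like against luminal-like cells was not tested. Of the 9 members tested, 8 were called between basal-like and fibroblast-like cells, 6 of them higher in basal-like cells, against 38.2% of all genes.

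The collagen-binding subunit Itga2 was the member that separated the luminal classes the other way. It had 49.3 CPM ± 39.1 in ER- and 18.7 ± 15.5 in ER+ cells and was higher in ER- cells in 12 of 14 fragments (ER+ minus ER- -1.60, SE 0.537, adjusted p = 0.02). Without nipple 22 the difference was -1.43 and its adjusted p 0.052. Basal-like cells, at 56.6 ± 23 CPM, were higher than ER+ cells (1.89, SE 0.505, adjusted p = 0.0016) but not called against ER- cells (0.29, SE 0.501, adjusted p = 0.72). In all, 3 of 9 members, Itga2, Itga5 and Itga6, were called between the luminal classes, against 26.6% of all genes.

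Itga9 and Itga1 were low. Itga9, a tenascin receptor subunit, had 29.3 CPM ± 16.8 in basal-like and 22.6 ± 15.2 in fibroblast-like cells, which did not pass the test (0.32, SE 0.48, adjusted p = 0.64). Luminal-like cells held 7 UMIs of it in ER+ and 5 in ER- cells, against 16.5 and 3.63 expected from other wells. Itga1, the second collagen receptor subunit, had 100 UMIs in all basal-like cells, and its fragments ran from 0 to 68.3 CPM. Its highest level was in the 19 pericyte-like cells, pooled over 8 fragments, at 91.4 CPM (exact Poisson 95% interval 59.7 to 134), a class with no replicate test here. Those cells also had the highest pooled Itgb1, 1290 CPM (1160 to 1430), and no UMI of Itga2, Itga6 or Itgb6 among 284534, which allows up to 13 CPM each.

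Each alpha subunit's share of the UMIs of the 7 alpha subunits was compared between classes. The Itga5 share was 70.4% ± 13.4 (SD, n = 13 fragments) in fibroblast-like, 20.1% ± 8.77 in basal-like, 13.7% ± 4.4 in ER+ and 5.92% ± 4.79 in ER- cells. The Itga3 share was 31.6% ± 8.74 in basal-like, 16.3% ± 13.9 in ER-, 14.8% ± 4.76 in ER+ and 0.711% ± 1.43 in fibroblast-like cells. The Itga6 share was 35% ± 9.01 in ER+, 26.9% ± 12.3 in ER-, 19.5% ± 6.88 in basal-like and 0.169% ± 0.253 in fibroblast-like cells. These are shares of 3′ end UMIs, which were not divided by transcript length, and the efficiency of capture of each gene is not known, so they are compared between classes and not between subunits.

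**Figure D2:**
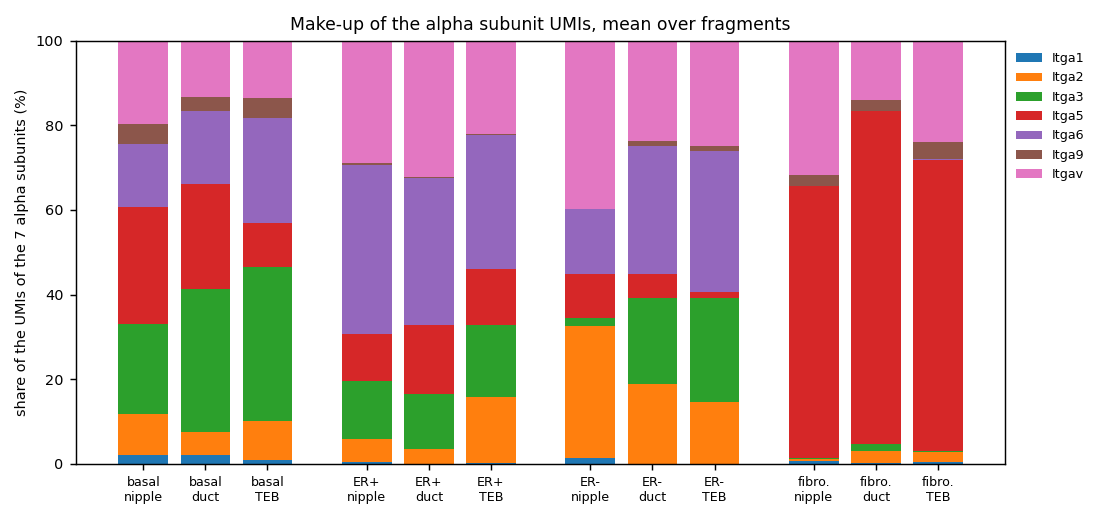
Stacked bars of the share of UMIs (percent, y axis) that each of the 7 alpha subunits took among all of their UMIs, as the mean over fragments, for each class and location (x axis). Within basal-like cells the Itga5 share is 27.5% in nipple, 24.9% in duct and 10.3% in TEB fragments.

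The main comparison of the study's design is between locations within basal-like cells. Duct cells had more Itga5, Itgb1, Itgav and Itga3 RNA than TEB cells, nipple cells had more Itga5, Itgb1 and Itgav than TEB cells, and nipple cells had less Itga3 than duct cells. Between duct and TEB 4 of 10 members were called, all higher in duct, where 10.4% of the 7316 genes tested were called and 6.48% were called higher in duct. Between nipple and TEB 3 of 10 were called, all higher in nipple, against 18.7% of all genes called and 8.9% higher in nipple. Between nipple and duct 1 of 10 was called, lower in nipple, against 6.29% called and 4.06% lower in nipple. Over the members the median log2 difference was 0.83 for duct minus TEB, 0.58 for nipple minus TEB and -0.38 for nipple minus duct, against -0.04, -0.05 and -0.04 over all genes. The first 2 of these share the TEB samples.

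**Figure D3:**
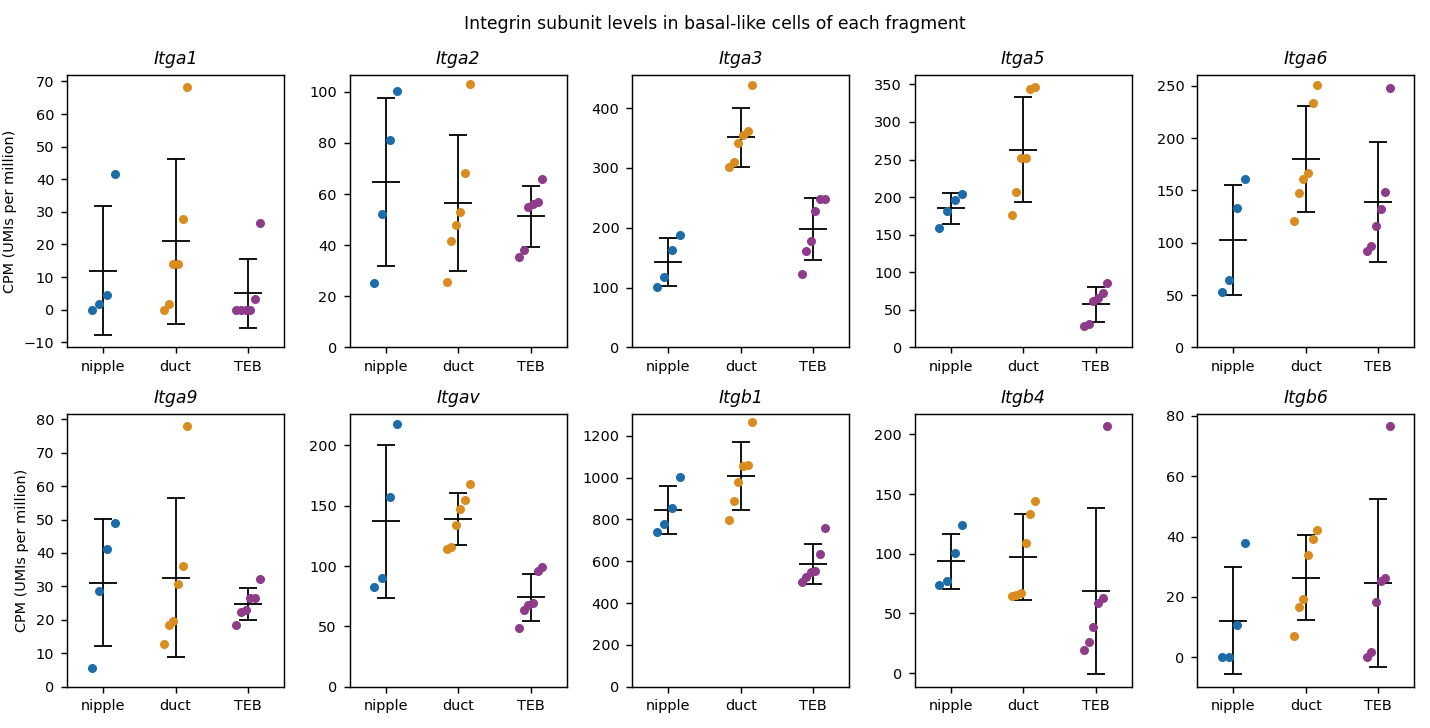
Level of each integrin subunit in basal-like cells (CPM, y axis, a separate scale for each gene) by location, 1 point for each fragment, with the mean as a bar and the SD as whiskers. The 6 TEB points of Itga5 (28.1 to 85.6 CPM) lie below all nipple and duct points (158 CPM and above).

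Itga5 showed the largest of the called differences. Its level was 158, 196, 181 and 204 CPM in the 4 nipples, ran from 177 through a median of 252 to 347 CPM in the 6 ducts, and from 28.1 through 64 to 85.6 CPM in the 6 TEBs. TEBs were thus the lowest, with no overlap with either other location, whereas nipples and ducts overlapped. Duct cells were 5.15-fold higher than TEB cells (log2 difference 2.37, SE 0.272, adjusted p = 5.4e-08) and nipple cells 3.66-fold (1.87, SE 0.29, adjusted p = 1e-05), while nipple minus duct was -0.49 (SE 0.284, adjusted p = 0.38). Thinned to 5000 UMIs, a UMI of Itga5 was found in 65.2% of 115 duct cells (55.8 to 73.9%), 39.2% of 97 nipple cells (29.4 to 49.6%) and 22% of 82 TEB cells (13.6 to 32.5%). Unthinned these shares were 84.3%, 63.9% and 56.1%. RNA from other wells would account for 27% of the 196 TEB UMIs, 12.8% of the nipple and 8.38% of the duct UMIs.

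Itgb1 fell in the same direction with a smaller size. It had 854, 741, 777 and 1001 CPM in nipples, 798 to 1266 CPM in ducts (median 1020) and 502 to 760 CPM in TEBs (median 549). Duct and TEB fragments did not overlap, and the highest TEB fragment, 32, lay above the lowest nipple. Duct minus TEB was 0.96 (SE 0.139, adjusted p = 4.6e-06), or 1.94-fold, and nipple minus TEB was 0.70 (SE 0.153, adjusted p = 0.0011). The share of cells with a UMI at equal depth was 93% in duct, 93.8% in nipple and 92.7% in TEB cells, so the difference is one of level among cells that nearly all held the RNA.

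Itgav had 83, 90.5, 218 and 158 CPM in nipples, 115 to 168 CPM in ducts (median 141) and 48.5 to 99.2 CPM in TEBs (median 68.5). Ducts lay wholly above TEBs (log2 difference 1.09, SE 0.288, adjusted p = 0.0097), whereas 2 of the 4 nipples lay within the range of the TEBs (nipple minus TEB 1.07, SE 0.314, adjusted p = 0.014). The second difference was 0.75 without nipple 23 (adjusted p = 0.13) and 0.88 with cells thinned to 5000 UMIs (adjusted p = 0.12). Both calls were lost without the cells that had an S or G2/M score above 0. The differences were then 1.119 for duct minus TEB (adjusted p = 0.091) and 1.015 for nipple minus TEB (adjusted p = 0.13), so their size changed little.

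Itga3, the laminin receptor subunit, was set apart by its ducts. Nipples had 189, 101, 163 and 118 CPM and TEBs 122 to 248 CPM (median 203), and all 6 ducts lay above both, at 302 to 439 CPM (median 349). Duct cells were 2-fold higher than TEB cells (log2 SE 0.209, adjusted p = 0.00093) and nipple minus duct was -1.30 (SE 0.242, adjusted p = 0.00062), while nipple minus TEB was -0.31 (SE 0.238, adjusted p = 0.42). At 5000 UMIs per cell the share of cells with a UMI was 69.6% in duct (60.3 to 77.8%), 36.1% in nipple (26.6 to 46.5%) and 48.8% in TEB cells (37.6 to 60.1%). The fit on sums of thinned cells gave 0.72 for duct minus TEB, with an adjusted p of 0.066.

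**Figure D4:**
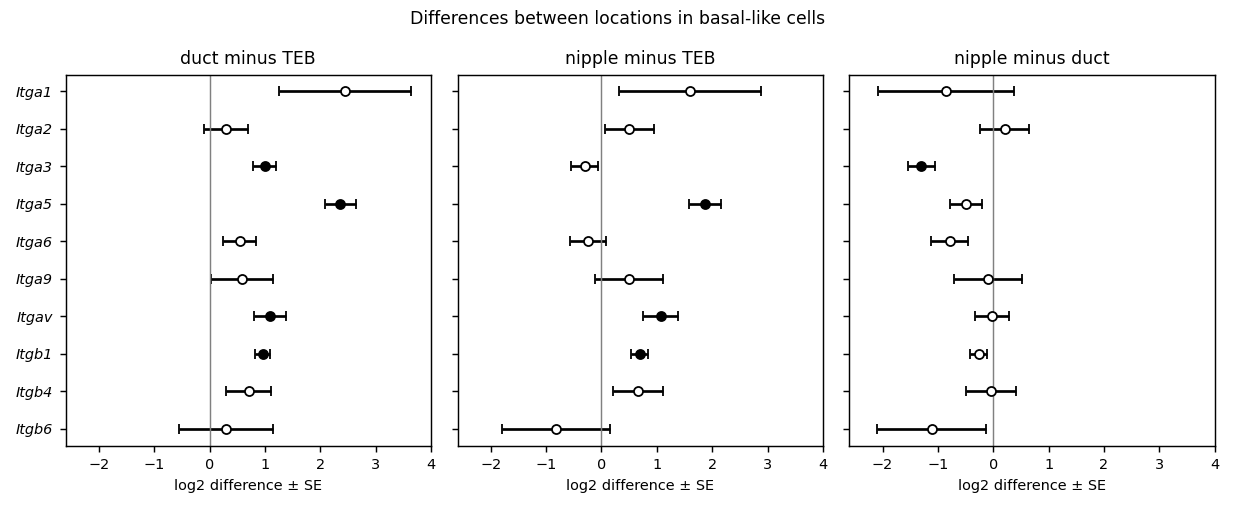
Log2 difference between locations in basal-like cells (x axis, whiskers show 1 SE) for the 10 integrin subunits (y axis) in 3 comparisons, with filled points for an adjusted p under 0.05. All 10 points lie above 0 for duct minus TEB, and Itga3 is the 1 filled point for nipple minus duct.

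The other 6 members were not called between locations in basal-like cells. Itga6 had 52.8, 161, 133 and 64.5 CPM in nipples, 121 to 251 CPM in ducts and 91.8 to 248 CPM in TEBs, and its largest difference was nipple minus duct (-0.79, SE 0.334, adjusted p = 0.18). Itgb4 overlapped in all pairs, with 73.6 to 124 CPM in nipples, 64.3 to 144 CPM in ducts and 19 to 207 CPM in TEBs, where fragment 33 alone exceeded 62.8 CPM (duct minus TEB 0.71, SE 0.41, adjusted p = 0.32). Itga2 was close in the 3 locations, at 64.7 ± 32.9, 56.5 ± 26.7 and 51.4 ± 11.9 CPM in nipple, duct and TEB (duct minus TEB 0.30, SE 0.401, adjusted p = 0.72). Itga9 ran from 5.66 to 78 CPM and Itgb6 from 0 to 76.6 CPM over the 16 fragments, with standard errors of 0.56 to 0.98 on the log2 scale. Itga1 was at 0 CPM in 4 of the 6 TEBs, 1 nipple and 1 duct (duct minus TEB 2.45, SE 1.19, adjusted p = 0.21).

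Several measures moved with location beside these results, and their part in them was not tested. Mean G2/M scores per fragment were -0.0227 to 0.188 in TEB, -0.0428 to -0.0067 in duct and -0.0837 to -0.0659 in nipple basal-like cells. All 8 fibroblast markers were detected at each location, with a summed level of 1080 to 2210 CPM in nipple, 347 to 563 in duct and 393 to 609 in TEB basal-like sums. Of the 5 luminal keratin and Epcam markers all were detected, at 4200 to 5240 CPM in nipple, 6530 to 8880 in duct and 2520 to 3760 in TEB fragments. When cells with both keratins (Krt5 and Krt18, each at 10 UMIs or more) were left out, the counts of members called were 0 in the 3 comparisons. That removed 77.4% of duct, 59.8% of nipple and 23.2% of TEB cells and left 2 duct sums. No call was left. For duct minus TEB the differences were then 2.21 for Itga5, 0.77 for Itgb1, 0.72 for Itga3 and -0.07 for Itgav (adjusted p = 0.077, 0.23, 0.55 and 0.99). For nipple minus TEB they were 1.39 for Itga5, 0.65 for Itgav and 0.21 for Itgb1 (adjusted p = 0.12, 0.6 and 0.7), and nipple minus duct was -1.40 for Itga3 (adjusted p = 0.24). With the UMIs expected from other wells subtracted, or without cells with a cycle score above 0, edgeR called 4 and 3 members for duct minus TEB, 3 and 2 for nipple minus TEB, and 1 and 1 for nipple minus duct.

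The same locations were compared in the luminal classes. In ER+ luminal-like cells 0 of 8 members tested were called in any pair of locations by edgeR, 4 of 24 tests had an unadjusted p under 0.05, and DESeq2 called 1. All genes were called at 5.57% (nipple minus TEB), 2% (nipple minus duct) and 1.64% (duct minus TEB). The nearest to a call were Itga2, with 1.01 to 13.4 CPM in ducts and 1.41 to 55.2 CPM in TEBs (duct minus TEB -1.79, SE 0.57, adjusted p = 0.12), and Itgav, with 54.2 to 91.8 CPM in ducts and 26.4 to 89.7 CPM in TEBs (0.86, SE 0.278, adjusted p = 0.13). Itgb1 and Itga5 had levels of 333 and 40.8 CPM in ducts against 404 and 27 CPM in TEBs (adjusted p = 0.66 and 0.62).

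In ER- luminal-like cells 1 of 7 members tested was called in 1 pair. Itgav had 92.2, 70.9, 57.6 and 261 CPM in nipples and 16.8, 26.2, 39.6 and 14.4 CPM in TEBs, without overlap (nipple minus TEB 2.47, SE 0.629, adjusted p = 0.017). This rests in part on nipple 24, the highest, and TEB 42, the lowest, without which the difference was 1.73 (adjusted p = 0.17) and 2.25 (adjusted p = 0.069). Itga2 also had no overlap between nipples (44.1, 159, 69.1 and 74.6 CPM) and TEBs (16.8, 33, 22 and 0 CPM) but was not called (2.38, SE 0.759, adjusted p = 0.068). Itga5, too low here to be tested, was likewise lowest in TEBs. It had 16, 29.2, 41.4 and 22.9 CPM in nipples and 6.72, 1.38, 0 and 0 CPM in TEBs, without overlap. These were 37 and 3 UMIs, where RNA from other wells would give 24.6 and 9.41. The background was 4.57% of genes called (nipple minus TEB), 1.63% (nipple minus duct) and 1.14% (duct minus TEB). In the latter 2 pairs 0 of 7 members were called by edgeR, with 3 and 2 at an unadjusted p under 0.05, and DESeq2 called 2 over all 3 pairs.

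Whether a difference in basal-like cells exceeded that in luminal-like cells was tested directly, in a fit without fragment as a block. It took basal-like and luminal-like sums of the same fragment as independent. Against ER+ cells, the nipple minus TEB difference was larger in basal-like cells for Itga5 by 1.95 (SE 0.479, adjusted p = 0.0056) and for Itgb1 by 0.81 (SE 0.223, adjusted p = 0.014), and the duct minus TEB difference for Itga5 by 1.73 (SE 0.409, adjusted p = 0.0059) and for Itgb1 by 1.18 (SE 0.199, adjusted p = 5.6e-05). No other member was called, with 8.16% (nipple minus TEB), 1.6% (nipple minus duct) and 3.78% (duct minus TEB) of all genes called. For Itga3 the difference between classes was -1.19 for nipple minus duct (SE 0.408, adjusted p = 0.12). Against ER- cells 0 members were called, where 3.46%, 1.23% and 1.45% of genes were. The unadjusted p was under 0.05 in 6 of these 30 tests, among them Itga5 for nipple minus TEB (-2.11, SE 0.791, adjusted p = 0.14). Its minus sign stands for a larger difference in ER- than in basal-like cells, opposite to the result against ER+ cells.

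In fibroblast-like cells 5 members were tested and 0 were called in any pair by edgeR, with 2 of 15 tests at an unadjusted p under 0.05. DESeq2 also called 0. The background was 1.54% (nipple minus TEB), 0.2% (nipple minus duct) and 0.271% (duct minus TEB). The cluster with the most nipple cells of this class held 86 of them, and that with the most TEB cells held 64. Most duct cells (28) lay in a cluster that also held 29 nipple and 16 TEB cells, and another held 6 duct and 18 TEB cells. Duct sums held only 5 to 11 cells. Itgav had 261, 251, 249 and 206 CPM in nipples and 66.9, 50.4, 36.2 and 130 CPM in ducts, without overlap (nipple minus duct 1.74, SE 0.456, adjusted p = 0.12), and over all genes the median of that comparison was shifted by 0.13. Itga5 had 490 ± 56.1, 581 ± 316 and 497 ± 155 CPM in nipple, duct and TEB. The direction seen for it in basal-like cells, lowest in TEBs, was not found at these depths (nipple minus TEB 0.07, SE 0.36).

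The ligands and inner partners of these receptors were taken from lists of laminin chains, other matrix ligands, adaptors and kinases, and hemidesmosome genes. In basal-like cells, 7 of 9 laminin chains tested were called between duct and TEB, all higher in duct, with a median log2 difference of 2.01, where 10.4% of all genes were called and 6.48% were higher in duct. Lama5, a laminin alpha chain of basement membranes, had 163 CPM in duct and 22.2 CPM in TEB (2.96, SE 0.33, adjusted p = 2.9e-08). Lama4, another alpha chain, had 33.7 CPM against 6.02 CPM (2.68, SE 0.879, adjusted p = 0.045). Lama1 went the other way between nipple and TEB, with 9.45 CPM against 118 CPM (-3.38, SE 0.57, adjusted p = 3.6e-05), where Lama5 (2.96) and Lamb3 (1.19) were higher in nipple. Between nipple and duct 4 of 9 chains were called, all lower in nipple, among them Lama1 (-2.27) and Lamc1 (-1.30), where 6.29% of all genes were called and 4.06% were lower in nipple.

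**Figure D5:**
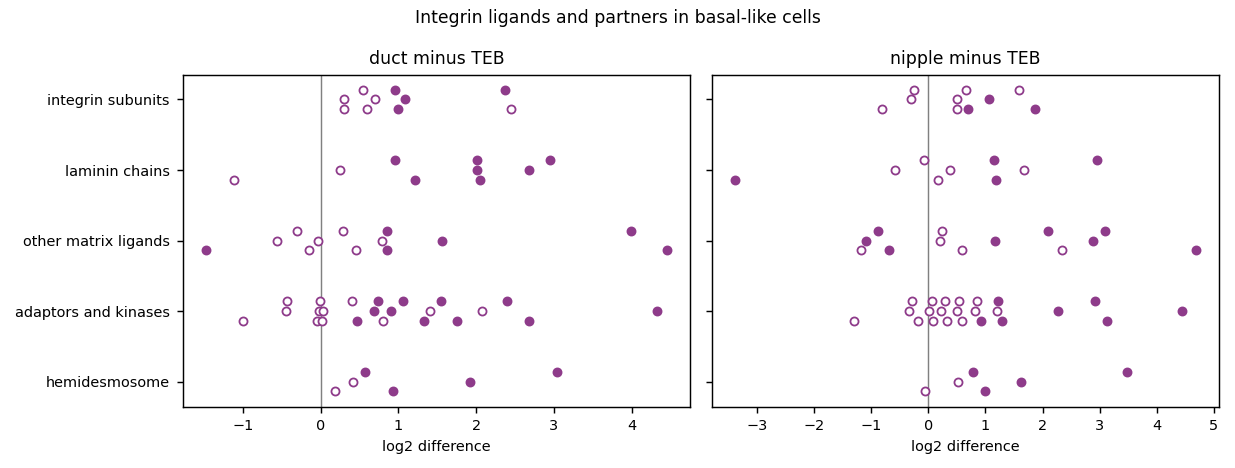
Log2 difference in basal-like cells (x axis) for the integrin subunits and the genes of the 4 lists of ligands and partners (y axis), 1 point for each gene tested, filled for an adjusted p under 0.05, for duct minus TEB and nipple minus TEB. All called laminin chains, adaptors and hemidesmosome genes lie above 0 for duct minus TEB.

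Of 23 adaptors and kinases tested, 11 were called higher in duct than in TEB and 0 lower, and 7 were called higher in nipple than in TEB and 0 lower. Over all genes 6.48% were called higher in duct and 8.9% higher in nipple. Tns1, a tensin that links beta subunits to actin, had 52.3 CPM in duct, 56.4 CPM in nipple and 3.78 CPM in TEB (4.32, SE 0.796, adjusted p = 0.00017, and 4.44, SE 0.83, adjusted p = 0.00016). Bcar1 (p130Cas, a docking protein of focal adhesions) was higher by 2.68 and 3.12, Actn1 (alpha actinin 1) by 2.40 in duct, and Tns3 by 2.91 in nipple. Between nipple and duct edgeR called 0 of the 23, with an unadjusted p under 0.05 for 3.

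Of 6 hemidesmosome genes, 4 were called higher in duct and 4 higher in nipple than in TEB, and edgeR called 0 between nipple and duct, with an unadjusted p under 0.05 for 3. All genes were called higher at 6.48% and 8.9% in these comparisons with TEB. Krt14 led (3.04 and 3.47), followed by Krt5 (1.92 and 1.62), which are also among the markers of the class. Col17a1, a hemidesmosome collagen that meets alpha 6 beta 4, had 392 CPM in duct against 231 CPM in TEB (0.93, SE 0.205, adjusted p = 0.0016), and Dst (dystonin) was 2-fold higher in nipple than in TEB (log2 SE 0.218, adjusted p = 0.0011). The integrin subunits of that structure, Itga6 and Itgb4, were not called in these pairs.

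Other matrix ligands went both ways: of 13 tested, 5 were called higher and 1 lower in duct than in TEB, and 5 higher and 3 lower in nipple than in TEB. Over all genes 6.48% were called higher and 3.91% lower in duct, and 8.9% higher and 9.81% lower in nipple. The tenascin gene Tnc had 68.9 CPM in duct and 2.57 CPM in TEB (4.45, SE 0.879, adjusted p = 0.00045), and Postn (periostin, an alpha v ligand) was higher than in TEB by 3.99 in duct and 4.69 in nipple, as was Thbs1 (thrombospondin) by 1.56 in duct. Col1a1, Col1a2 and Col3a1 were higher in nipple than in duct basal-like cells by 3.19, 3.13 and 2.24, and Col1a1 and Col1a2 than in TEB cells by 2.88 and 3.10. These 3 collagen genes are markers of fibroblasts, whose summed markers were higher in the nipple sums as given above, and the part of that RNA was not tested.

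Among 17 other integrin subunits, 3 passed the filter in basal-like cells and 0 were called between locations by edgeR, with 0 at an unadjusted p under 0.05. Among the 4 compared classes, those whose mean reached 20 CPM were Itgb5 (79.7 CPM ± 38 in fibroblast-like and 26.1 ± 17.6 in ER+ cells), Itgb3 (69.8 ± 39), Itga11 (40.2 ± 52.8) and Itga2b (39.8 ± 36.5), the last 3 in fibroblast-like cells. Both beta subunits are partners of alpha v, and alpha 11 is a collagen receptor of fibroblasts. In the 78 myeloid-like cells, pooled without a test, the leukocyte subunits Itgb2 (578 CPM), Itgam (259 CPM) and Itgax (120 CPM) stood beside Itgb1 (394 CPM) and Itga5 (194 CPM), and Itgb7 (66.5 CPM), Itgal (34.7 CPM) and Itga4 (29.4 CPM) were lower. In the 19 pericyte-like cells Itga7 (264 CPM) and Itga8 (105 CPM) also passed 20 CPM.

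Over the 59 sums of the 4 classes, the genes whose log2(CPM + 1) was most like that of a member were taken from 4876 others. For Itga5 these were Ptrf and Nbl1 (Pearson r = 0.903 each) and the laminin chain Lamc1 (0.898). Itga6 went with Sfn (0.932), Dstn (0.924) and Perp (0.923), Itgb4 with Sfn (0.901), Pkp3 (0.894) and Tinagl1 (0.884), and Itga3 with Gpr56 (0.861), Msrb1 (0.844) and Dsp (0.83). Itgb1 was nearest to Igfbp3 (0.861), Flna (0.815) and Myl9 (0.811), and Itga9 to Gas1 (0.869), Col14a1 and Col18a1 (0.842 each). Itgb6 followed Ank3 (0.8), Stxbp2 (0.799) and Lsr (0.785). Weaker likeness was found for Itga2 (Rap2b and Krt23 at 0.693, Lamb3 at 0.683), Itgav (1810055G02Rik at 0.689, Spon2 at 0.681, Itga5 at 0.667) and Itga1 (Wnt10a at 0.627, Mical2 at 0.591, Mylk at 0.578). Between members r was highest for Itga6 and Itgb4 (0.816), the 2 chains of the laminin receptor of hemidesmosomes. These points share fragments and depth, and most of their spread is between classes, so r is given as a description.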

How the data were processed

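The deposited UMI counts were whole numbers per gene and cell, not normalized. The authors made them with UMI-tools, Trim Galore, FastQC, STAR (mm10, unique alignments) and featureCounts; versions and strand settings were not given in the sources used here. Fragment totals were 1856141 to 5233122 UMIs. Cells with at most 5% spike-in reads, 5000 to 120000 UMIs and 200 to 6000 genes were kept. Clustering used R 4.3.3 and Seurat 5.3.0, with integrins kept out of the 2000 variable genes, 14 components and resolution 0.5, and clusters were named from marker lists; no doublet caller was run. Within each fragment the cells of a class (5 or more) were added up. The sums were tested with edgeR 4.0.16 (TMM, quasi-likelihood, Benjamini-Hochberg adjustment over all genes that passed the filter on low counts). Classes were compared with fragment as a block, but the test of the interaction of class and location had no such block. The study tested single cells with a Wilcoxon test, which takes cells as replicates. DESeq2 1.42.0, other filters, thinned cells, other clusterings and fits without each fragment were alternatives. The code was tested on simulated data. For nipple minus TEB, simulated log2 changes of 1 in size were called at 22.7% in basal-like and 25.8% in ER+ sums. In ER- and in fibroblast-like sums it was 4.55% each, so a member not called may still differ. Classes come from other genes of the same cells.

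The members and gene lists were chosen with earlier results of these data known. The text names the 10 members, at most 3 called genes with the largest log2 difference per list and pair of basal locations, other integrins of at least 20 CPM in a class, and the 3 genes most like each member. One gene that this rule would name is not reported here.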

Additional observations from a re-analysis of the deposited data

Results flagged for a closer look

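A sample far from the others was found in 19 of 115 groups of fragments by Dixon's test, where chance flags about 1 in 20 groups, and many of these rest on few UMIs. In basal-like cells these were nipple 21 for Itga1 (41.5 CPM), TEB 32 for Itga1 (26.4 CPM), duct 62 for Itga9 (78 CPM), TEB 34 for Itga6 (248 CPM), and TEB 33 for Itgb4 (207 CPM) and Itgb6 (76.6 CPM). In ER+ luminal-like cells they were nipple 21 (3.68 CPM) and TEB 31 (1.17 CPM) for Itga1, nipple 22 for Itga9 (3.17 CPM), duct 62 for Itgb4 (74.7 CPM) and TEB 43 for Itgav (89.7 CPM). In ER- luminal-like cells nipple 23 stood apart for Itga1 (11.5 CPM), nipple 24 for Itgav (261 CPM) and duct 62 for Itga9 (8.74 CPM). In fibroblast-like cells the samples were nipple 23 (0.661 CPM) and TEB 31 (19.6 CPM) for Itgb6, duct 61 for Itga1 (7.75 CPM), duct 52 for Itga6 (6.3 CPM) and TEB 42 for Itgav (381 CPM).

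The difference between locations differed between the basal-like class and ER+ cells for 2 members, by the interaction test in edgeR without a fragment block. For nipple minus TEB it was larger in basal-like cells by 1.95 for Itga5 and 0.814 for Itgb1, and for duct minus TEB by 1.73 for Itga5 and 1.18 for Itgb1 on the log2 scale.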

How the results depend on the processing

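Of the log2 differences recomputed under the alternatives, 884 kept their direction and their side of the threshold, 56 kept their direction but were no longer called, and 1 reversed. That was Itgav for duct minus TEB in basal-like cells, which was -0.07335 without cells with both keratins. The same alternative gave 0 members called in basal-like cells for nipple minus TEB, 0 for nipple minus duct and 0 for duct minus TEB, with 2 duct fragments left. With the label number as a replicate block (duct and TEB fragments only), 2 members were called for duct minus TEB, Itga5 and Itgb1. The deviations of same-numbered duct and TEB fragments in basal-like cells had r = 0.0019 and -0.0059. These 2 pairs cannot show whether such fragments share a mouse, which the labels do not say. In ER+ cells 1 member was called with DESeq2 (Itgav) and 1 with at least 10 cells per sum (Itga6). In ER- cells the count was 2 with DESeq2, 0 with thinned cells and 0 with at least 10 cells per sum. In fibroblast-like cells it was 1 with no filter on low counts and 1 with at least 10 cells per sum. Thinning, which left 5 members tested, gave 5 for basal minus ER+, 1 for ER+ minus ER- and 3 for basal minus fibroblast.

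Without 1 fragment at a time the counts ran from 0 to 1 in ER+ cells (1 without nipple 22, TEB 34 or TEB 43), from 0 to 1 in ER- cells (0 without nipple 24 or TEB 42) and from 0 to 1 in fibroblast-like cells (1 without TEB 42). In basal-like cells they ran from 2 to 4 for nipple minus TEB, 4 to 5 for duct minus TEB and stayed at 1 for nipple minus duct. Without regression when scaling, nipple basal cells fell in an unnamed cluster, so that no nipple comparison was had. The cause of these changes was not tested. Removing cells by their cycle score or subtracting UMIs expected from other wells was chosen after seeing the data. Depth limits the low members Itga1, Itga9 and Itgb6 most.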
